A study of Caenorhabditis elegans with 24 samples.

Results

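Nuclear hormone receptor genes of *C. elegans* were followed through 3 h of heat in animals with and without the transcription factor HLH-30/TFEB. The members were chosen by name and by level, as the protein-coding genes with a name starting *nhr-* in the WBcel235 annotation whose mean raw count over 23 libraries was at least 10. Of 269 such genes in the files, 174 reached this level and 95 did not. RNA was taken in bulk from whole animals, many worms to a sample, grown on *E. coli* OP50 and kept on day 1 of adulthood at 20°C or, for the heated groups, 37°C for 3 h. Wildtype animals were N2 Bristol. The *hlh-30(tm1978)* mutants carry a deletion allele of *hlh-30*. Rescued animals carry the same allele and an integrated *rab-3p::hlh-30::GFP* transgene with the *rab-3* 3′UTR, so that HLH-30 is put back in neurons, and they also carry the *unc-122p::RFP* selection marker, which neither other genotype has. Each genotype and temperature had 4 libraries, except that 3 were used for wildtype at 20°C, for 6 groups in all. The rescued line is 1 transgenic line, and a difference between it and the other genotypes can come from the transgene, its marker or its insertion, which cannot be told apart here.

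Nuclear hormone receptors are transcription factors that bind DNA through a pair of zinc fingers and carry a ligand-binding domain, through which small lipophilic molecules can switch their activity. *C. elegans* has many more of them than insects or mammals, because an HNF4-like ancestor was copied again and again, while a small set has clear counterparts in insects and vertebrates. In the adult, receptors such as NHR-49 and NHR-80 set fat desaturation and β-oxidation, NHR-10 and NHR-68 switch on propionate breakdown, and NHR-8 and NHR-86 act in the defence against toxins and pathogens, mostly in the intestine. NHR-49 has also been placed beside HLH-30 in the defence against bacterial infection. Names starting *nhr-* do not cover the whole class, since receptors such as *daf-12* and the zinc sensor *hizr-1* (also called *nhr-33*) go by other names.

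The libraries held 11207383 to 28091186 counted reads, and 6 libraries with at least 23025013 reads stood apart from 17 with at most 15845829. Of the deeper libraries 3 were wildtype at 37°C and none was wildtype or rescue at 20°C, so depth and heat overlap in wildtype. For wildtype at 20°C, the file of replicate 1 held in all 46756 genes the counts of the heated wildtype replicate 4 and was left out. *hlh-30* itself was at 4.19 to 16.01 CPM in mutants, 15.5 to 73.8 CPM in wildtype and 24.4 to 117.1 CPM in rescued animals, and within each temperature every mutant library was below every other. CPM are TMM-scaled counts relative to the library total. The study's methods call the replicates independent and give each its own synchronized animals. Differences are log2 fold changes from edgeR's quasi-likelihood test. Their standard error was derived from that test, as the absolute log2 fold change over the square root of the F statistic. The words "past the threshold" mean an adjusted p (Benjamini-Hochberg over all 13482 genes tested) under 0.05. Library values are given in the order of replicate number (2 to 4 for wildtype at 20°C).

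The share of *nhr-* genes that reached the level, 64.7%, was the same as the share of all protein-coding genes, 64.7%. Just outside were *nhr-207*, *nhr-236* and *nhr-60*, with mean counts of 8.70, 9.13 and 9.61, and just inside were *nhr-178*, *nhr-263* and *nhr-7*, with 10.4, 10.8 and 11.7. Of the 95 genes left out, 9 had no count in any library, 54 had a mean below 1, and 11 had a mean of at least 10 in some group. *nhr-178*, *nhr-222* and *nhr-263* passed only through the group in which they were highest. The members are unevenly spread over the genome. Chromosome V holds 110 of them, or 63.2%, against 18.9% of all protein-coding genes that reached the same level. On chromosome I, 8 of 23 *nhr-* genes were members, against 110 of 167 on chromosome V and 25 of 33 on chromosome IV. In 25 runs of neighbours with gaps of at most 20 kb lie 96 members, and 20 of these runs, with 81 members, are on chromosome V. Exons of 50 members overlap those of another gene, 36 on the opposite strand. The strand setting of the counting is not given in the sources used here, so the counts of those members are uncertain.

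Levels were compared between genes as CPM per kilobase of exon. Few members made up much of the family's RNA in wildtype at 20°C, where the 10 highest held 34.95% of the summed level and the median member was at 4.18. The highest was *nhr-114*, which protects the germline on diets poor in tryptophan, at 142 CPM per kilobase. Next came *nhr-68*, of the propionate pathway, at 59.8 and *nhr-49*, a regulator of fat desaturation and β-oxidation that works much as mammalian PPARα does, at 46.97. *nhr-97* (26.97), *nhr-10* (26.6), *nhr-12* (26.3), *nhr-69* (25.97), *nhr-86* (20.9), *nhr-100* (20.1) and *nhr-66* (19.8) completed the 10. These levels chose the members in part and are given as a description. At 37°C *nhr-114* and *nhr-68* changed places in all 3 genotypes, with *nhr-68* at 76.1 and *nhr-114* at 37.9 CPM per kilobase in wildtype. From 22 to 36 members were below 1 CPM per kilobase, depending on the group.

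The first question was how the receptors answered heat in each genotype. In wildtype 10 members rose and 43 fell, so 30.5% were past the threshold, against 32.1% of all genes tested. The share that fell, 24.7%, was above the 17.1% of all genes, and the share that rose, 5.75%, was below the 15% of all genes. In *hlh-30(tm1978)* mutants 27 rose and 27 fell, or 31%, against 38.1% of all genes (21.3% higher and 16.8% lower). In rescued animals 11 rose and 3 fell, or 8.05%, against 20.4% of all genes (11.7% higher and 8.72% lower). The median log2 fold change of the members was -0.42 in wildtype, -0.11 in mutants and 0.02 in rescued animals, and that of all genes was 0.01, 0.04 and 0.01.

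**Figure D1:**
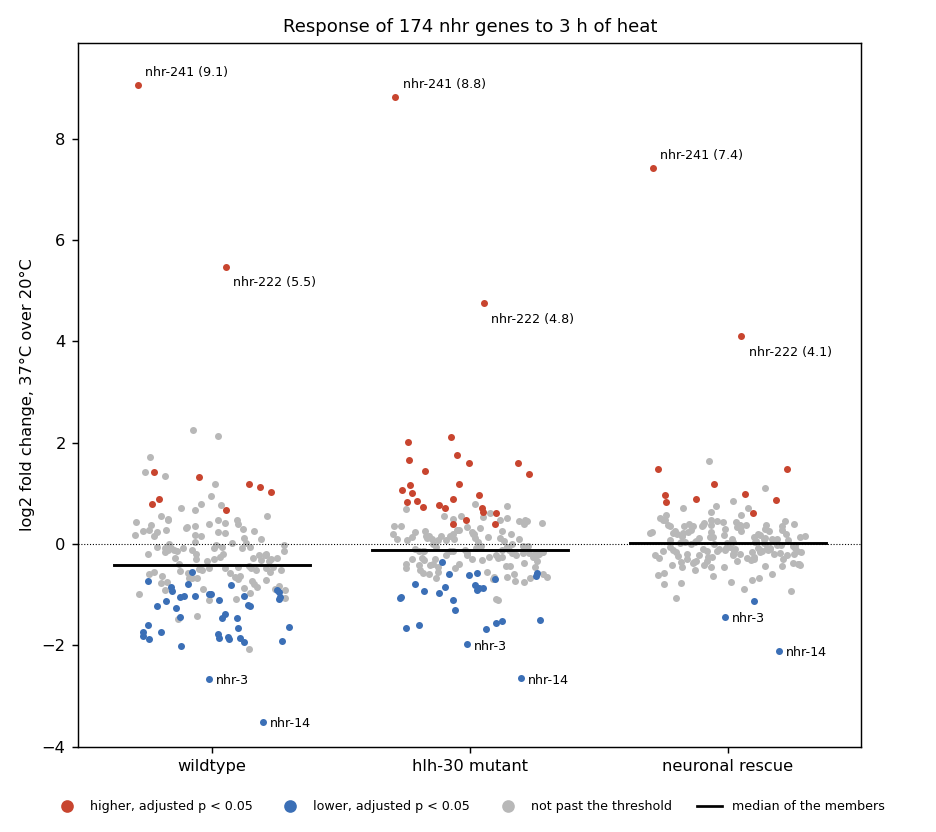
Each point is 1 of the 174 members, placed by its log2 fold change from 20°C to 37°C (y axis) in each genotype (x axis, with random sideways spread). Black lines are the medians of -0.42, -0.11 and 0.02, and *nhr-241* and *nhr-222* lie far above the other members in each genotype (the fitted value of *nhr-241* depends on the prior count, since it had no count at 20°C). Blue points number 43 in wildtype (24.7%, against 17.1% of all genes) and 3 in rescued animals (1.72%, against 8.72%). The difference between these 2 responses, tested directly, was past the threshold in 10 members.

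The balance in wildtype leaned on 1 library. Over the 3 wildtype libraries at 20°C the members summed to 1631, 1855 and 2353 CPM, and over the 4 at 37°C to between 1484 and 1565. Without replicate 4 at 20°C, the highest of the 3, 17 members rose and 29 fell, and their median was -0.14. Without replicate 4 at both temperatures 16 rose and 17 fell. Mutant replicate 3 at 20°C (1911 against 1394 to 1651 CPM) and rescue replicate 4 at 20°C (2160 against 1438 to 1669 CPM) were likewise the highest of their groups. Without the former 30 members rose and 20 fell in mutants, with a median of 0.05, and without the latter 22 rose and 2 fell in rescued animals, with a median of 0.16. With a term for deep and shallow libraries in the fit, 11 members were called in wildtype, 2 higher and 9 lower. Of the 28 wildtype heat calls among the members taken for naming, 9 were past the threshold in that fit (*nhr-3*, *nhr-14*, *nhr-35*, *nhr-80*, *nhr-114*, *nhr-121*, *nhr-222*, *nhr-226* and *nhr-241*), and the other 19 kept their direction at adjusted p of 0.0536 to 0.387. Replicate 1 was the only shallow library of heated wildtype, and all unheated wildtype libraries were shallow. With the depth term the heat change in wildtype thus rests on that heated library, and a call lost there cannot tell depth from heat. In mutants all 31 such heat calls were past the threshold with that term, and in rescued animals 10 of 13. With scaling by library size alone, the calls in mutants came to 22 higher and 37 lower and those in rescued animals to 8 and 6, and the median of all genes in wildtype and mutants shifted by -0.11 and -0.15.

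Markers of the intestine, where many of these receptors work, were followed beside the members. All 5 intestinal genes listed (*elt-2*, *ges-1*, *vit-2*, *vit-6* and *asp-1*) fell with heat in wildtype and in mutants, and 3 of the 5 fell in rescued animals. Their summed level ran from 49180 to 105000 CPM in wildtype at 20°C and from 4591 to 8130 CPM at 37°C. In mutants the ranges were 30250 to 75760 and 2720 to 11210 CPM, and in rescued animals 27150 to 91020 and 12540 to 17310 CPM. No range at 37°C reached that at 20°C in any genotype. The members' sums did overlap between 20°C and 37°C in mutants (1394 to 1911 and 1479 to 1643 CPM) and in rescued animals (1438 to 2160 and 1551 to 1740 CPM). *elt-2*, the GATA factor that defines the intestine, changed by -2.26 in wildtype, -1.49 in mutants and -0.17 in rescued animals on the log2 scale. In each genotype at 20°C the library with the highest summed receptor level also had the most *elt-2*, with 25.3, 19.9 and 26.9 CPM against 15.4 to 16.3, 9.66 to 14.3 and 7.26 to 13.5 CPM in the others. Neuronal markers fell too, 3 of 5 in each genotype, while 1 rose in wildtype, 1 in mutants and 0 in rescued animals. Germline markers ran the other way, and 4, 5 and 2 of 7 listed rose with heat in wildtype, mutants and rescued animals while none fell. The part of these shifts in the receptors' values was not tested, and in bulk RNA fewer cells of a type and less RNA per cell cannot be told apart.

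**Figure D2:**
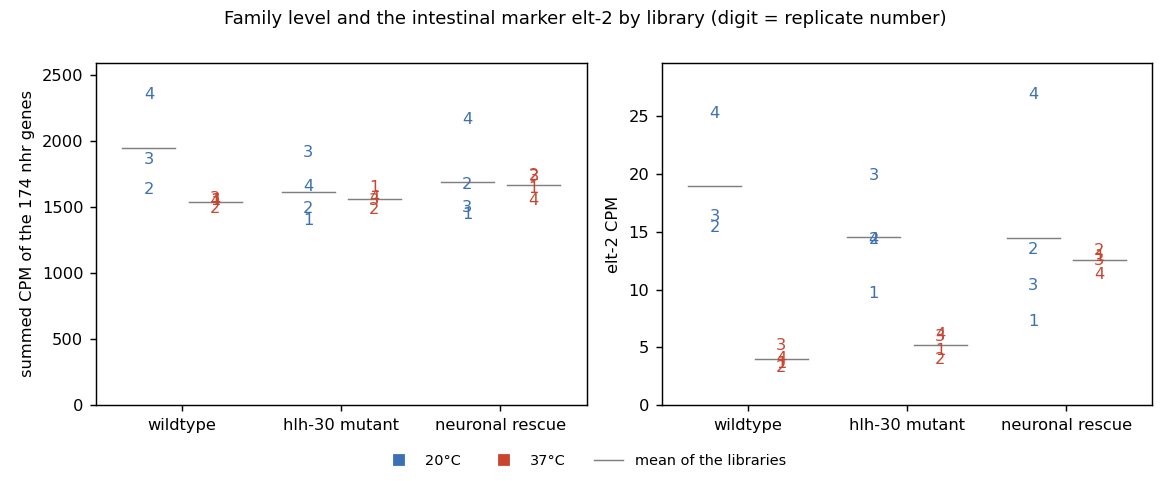
Summed CPM of the 174 members (left, y axis from 0) and CPM of the intestinal marker *elt-2* (right, y axis from 0) in every library, with the digit giving the replicate number, blue for 20°C and red for 37°C, and a line at the mean of each group. Replicate 4 of wildtype, replicate 3 of the mutants and replicate 4 of the rescued animals are the highest 20°C libraries in both panels.

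Of the 174 members, 74 (42.5%, against 47.5% of all genes) were past the threshold in at least 1 genotype and 100 in none. 5 rose in all 3 genotypes, or 2.87% against 7.9% of all genes, and 3 fell in all 3, or 1.72% against 5.04%. The most frequent other patterns were a fall in wildtype and mutants without a call in rescued animals (22 members), a fall called in wildtype alone (17) and a rise called in mutants alone (14). The shares of these patterns over all genes were not counted. Rescued animals had fewer heat calls among all genes too (20.4% against 32.1% in wildtype and 38.1% in mutants), so the patterns are not read as a trait of the receptors. The 43 members that fell in wildtype had a median of -1.27 there, -0.64 in mutants and -0.21 in rescued animals. Of these 43, every one was below 0 in mutants and 31 were below 0 in rescued animals. The 10 that rose in wildtype had medians of 1.16, 1.27 and 0.62. Both sets were chosen by their call in wildtype, which favours large values there, and the medians are a description. *nhr-168* was the single member called in opposite directions.

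The 3 members that fell in all genotypes were *nhr-14*, *nhr-3* and *nhr-226*. *nhr-14* (chromosome X, 8473723 to 8476176, minus strand) encodes a receptor that holds back iron uptake and pathogen resistance. It was at 12.4, 16.5 and 15.3 CPM in wildtype at 20°C and at 0.813, 0.928, 1.597 and 1.77 CPM at 37°C. Mutants went from 5.902, 9.52, 14.6 and 11.3 CPM to 1.76, 1.11, 2.69 and 0.997 CPM with heat, and rescued animals from 9.85, 11.7, 11.5 and 14.7 CPM to 1.79, 2.94, 2.98 and 2.901 CPM. Every heated library was below every library at 20°C. The log2 fold changes were -3.50 ± 0.31 in wildtype (SE, adjusted p = 1.79e-04), -2.65 ± 0.35 in mutants (1.22e-04) and -2.11 ± 0.23 in rescued animals (5.66e-05), the most negative of the family in each genotype.

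*nhr-3* (chromosome X, 14558504 to 14561425, plus strand) fell by nearly as much and, like *nhr-14*, lies on the X chromosome. Its levels were 14.2, 22.1 and 23.9 CPM in wildtype at 20°C and 2.85, 2.98, 4.26 and 2.62 CPM at 37°C, 11.04, 12.1, 26.01 and 13.8 and 4.901, 3.24, 4.03 and 3.74 CPM in mutants, and 19.97, 21.5, 20.01 and 28.01 and 9.74, 6.903, 7.87 and 7.56 CPM in rescued animals. The heated and unheated libraries were again apart in each genotype, and the heated rescued libraries were all above the heated libraries of both other genotypes. The changes were -2.66 ± 0.27, -1.98 ± 0.28 and -1.44 ± 0.19 (adjusted p = 2.91e-04, 2.14e-04 and 1.88e-04). *nhr-226*, on chromosome V, was at 2.82, 3.86 and 3.78 CPM in wildtype at 20°C and 0.407, 0.889, 1.997 and 1.05 CPM at 37°C, and its changes were -1.65 ± 0.45, -1.57 ± 0.24 and -1.12 ± 0.34. It is the least certain of the 3. Its call was lost without replicate 2 or 4 in wildtype and without replicate 2, 3 or 4 in rescued animals, with adjusted p up to 0.123 and 0.143 over the alternatives. The depth term ended the call in rescued animals too (0.0745). Of 12 alternatives, 9 kept the call in wildtype and 7 that in rescued animals.

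The 5 that rose in every genotype were *nhr-241*, *nhr-222*, *nhr-74*, *nhr-84* and *nhr-42*. *nhr-241* (chromosome V, 18699451 to 18700992, plus strand) had no count in any of the 11 libraries at 20°C. At 37°C it had 36 to 142 counts per library in wildtype, 34 to 74 in mutants and 9 to 44 in rescued animals, or 3.66, 5.49, 2.53 and 3.104, 3.02, 2.93, 2.85 and 5.403 and 0.769, 1.51, 1.71 and 1.298 CPM. Against a floor of 3 counts over each group at 20°C, it was at least 52.5-fold higher in heated wildtype, at least 77.2-fold higher in heated mutants and at least 29.1-fold higher in heated rescued animals. Every heated library held it, and no unheated library did. *nhr-241* thus reached the level through heated libraries alone, so a rise with heat was built into its choice as a member. At 37°C rescued animals had less of it than mutants (-1.46 ± 0.32, adjusted p = 0.00339) and than wildtype (-1.53 ± 0.34, adjusted p = 0.00497), and their libraries did not overlap with the others.

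*nhr-222* (chromosome V, 3541586 to 3543444, minus strand) was close behind, with 2, 4 and 1 counts in all over the wildtype, mutant and rescue libraries at 20°C. At 37°C the sums were 215, 108 and 26 counts, and the levels 1.52, 3.21, 2.48 and 2.46 CPM in wildtype, 1.51, 2.77, 1.43 and 1.58 CPM in mutants and 0.171, 0.714, 0.504 and 0.153 CPM in rescued animals. The ratio of 37°C to 20°C was 54.3 in wildtype (exact 95% counting interval 14.9 to 451.3), 29.8 in mutants (11.3 to 111.2) and 25.5 in rescued animals (4.19 to 1047). These intervals cover counting error only, and their widths come from the few counts at 20°C. Heated rescued libraries were below all heated libraries of the other genotypes (-2.23 ± 0.46 against mutants and -2.67 ± 0.45 against wildtype). This gene passed the level only through heated wildtype, its group of highest values. Its rise with heat and its difference from heated wildtype are thus in part a matter of how the members were chosen. In rescued animals its heat call was lost without replicate 2 or 3 (adjusted p up to 0.0917).

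*nhr-84* was at 5.35, 7.36 and 8.84 CPM in wildtype at 20°C and 16.5, 18.1, 11.5 and 12.2 CPM at 37°C, at 6.59, 6.85, 7.500 and 6.997 and 14.6, 17.96, 15.8 and 24.8 CPM in mutants and at 3.91, 5.29, 4.74 and 6.47 and 12.3, 16.7, 15.8 and 10.5 CPM in rescued animals. The temperatures did not overlap in any genotype. It rose by 1.02 ± 0.27, 1.38 ± 0.19 and 1.48 ± 0.23 (adjusted p = 0.0204, 1.65e-04 and 6.27e-04), and the call in wildtype was lost without replicate 1, 2 or 3 and with the depth term (up to 0.136). *nhr-42* was at 8.17, 10.7 and 15.7 and 28.1, 26.1, 22.3 and 25.2 CPM in wildtype, 6.67, 6.03, 8.11 and 7.06 and 20.8, 21.5, 19.2 and 23.6 CPM in mutants and 8.03, 8.500, 6.54 and 11.7 and 13.3, 20.8, 14.5 and 13.2 CPM in rescued animals. Again no heated library reached down to an unheated one. It rose by 1.14 ± 0.24, 1.61 ± 0.16 and 0.87 ± 0.22 (adjusted p = 0.00759, 1.61e-05 and 0.0148), with the call in rescued animals lost without replicate 2 or 3 (up to 0.159) and that in wildtype with the depth term (0.0536). *nhr-74* was low in wildtype, rising from 1.48, 1.02 and 1.93 CPM to 3.96, 2.67, 5.63 and 2.66 CPM with heat, and higher in rescued animals, at 4.82, 5.05, 3.002 and 6.16 and 9.39, 13.97, 10.7 and 8.02 CPM. Mutants lay between, with 1.303, 2.67, 1.93 and 6.11 and 15.4, 4.12, 8.73 and 12.1 CPM, and their temperatures overlapped. It rose by 1.32 ± 0.40, 1.75 ± 0.47 and 1.18 ± 0.25 (adjusted p = 0.03400, 0.0106 and 0.00556). Each of these calls was lost without some replicate (replicates 1, 2 or 3 in wildtype, where the depth term ended it too, 1 in mutants, 2 in rescued animals), with adjusted p up to 0.193, 0.0705 and 0.0704.

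**Figure D3:**
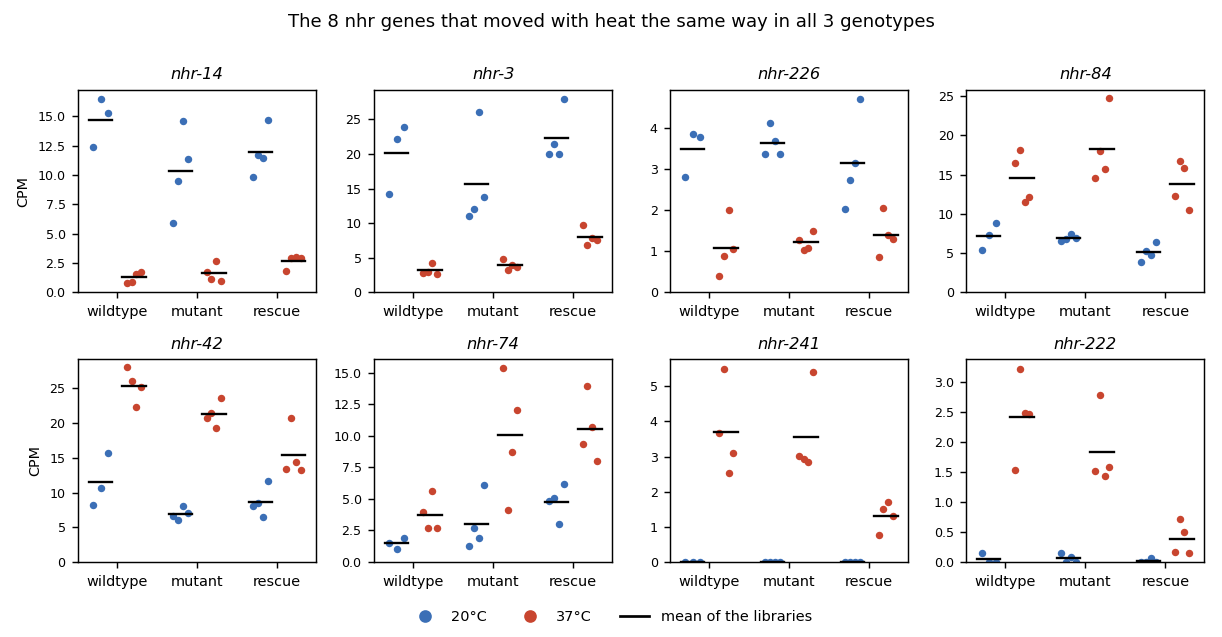
CPM (y axis, from 0) of the 8 members that moved the same way with heat in all 3 genotypes, by genotype (x axis), with 1 point per library, blue for 20°C and red for 37°C, and a black line at the mean of each group. *nhr-14*, *nhr-3* and *nhr-226* have their red points at the bottom, and *nhr-241* is at 0 in all 11 libraries at 20°C.

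Of 10 metabolic receptors listed, 4 fell and none rose with heat in wildtype (17.1% and 15% of all genes), 3 fell and 2 rose in mutants (16.8% and 21.3%), and none was called in rescued animals (20.4% either way). The list's median was -0.07, 0.03 and 0.01, against -0.42, -0.11 and 0.02 for all members and 0.01, 0.04 and 0.01 for all genes, so the list as a whole did not stand lower than the family in wildtype. *nhr-49* (chromosome I, 9869632 to 9874676, plus strand), the regulator of desaturation and β-oxidation, had 90.6, 88.7 and 128 CPM in wildtype at 20°C and 51.1, 51.5, 49.8 and 49.5 CPM at 37°C. Mutants had 69.1, 77.03, 80.9 and 77.5 and 57.1, 54.8, 57.3 and 69.99 CPM, and rescued animals 80.9, 80.4, 86.5 and 87.5 and 71.2, 70.9, 71.99 and 66.7 CPM. In wildtype the temperatures were far apart, in mutants they overlapped, and in rescued animals they were apart by little. The changes were -1.03 ± 0.16 in wildtype (adjusted p = 0.001803), -0.35 ± 0.12 in mutants (0.0343) and -0.22 ± 0.11 in rescued animals (0.193). The call in mutants was lost without replicate 1, 2 or 3 (up to 0.151), and that in wildtype with the depth term (0.0595).

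*nhr-80*, which works with *nhr-49* on the Δ9 desaturases, was at 14.6, 13.04 and 21.5 CPM in wildtype at 20°C and 5.18, 4.68, 4.48 and 4.76 CPM at 37°C, at 7.89, 10.3, 13.3 and 13.6 and 7.96, 5.46, 5.46 and 6.82 CPM in mutants, and at 9.78, 12.3, 9.61 and 17.2 and 14.7, 9.68, 9.77 and 6.95 CPM in rescued animals. Only in wildtype were the temperatures apart. It fell in wildtype (-1.79 ± 0.23, adjusted p = 8.33e-04) and in mutants (-0.81 ± 0.22, 0.0115, lost without replicate 2 or 3), and its change in rescued animals was -0.21 ± 0.26 (0.599). *nhr-114* (chromosome V, 4187185 to 4190008, plus strand) was at 189, 239 and 229 CPM in wildtype and 59.1, 50.8, 71.7 and 51.8 CPM after heat, at 153, 163, 234 and 208 and 93.6, 43.05, 63.4 and 65.8 CPM in mutants, and at 139.6, 131, 109 and 246 and 137, 128, 110.2 and 85.95 CPM in rescued animals. Wildtype and mutant libraries did not overlap between temperatures and rescue libraries did. The changes were -1.92 ± 0.16 (adjusted p = 1.47e-04), -1.51 ± 0.21 (2.12e-04) and -0.40 ± 0.23 (0.235). *nhr-64*, a receptor that acts on fat storage, went from 7.96, 9.69 and 14.98 to 4.78, 4.64, 6.39 and 4.72 CPM in wildtype (-1.09 ± 0.27, adjusted p = 0.0153, lost without replicate 4 and with the depth term). Its values in rescued animals, 6.14, 7.37, 5.14 and 9.67 CPM without heat and 10.1, 10.7, 7.17 and 8.63 CPM with it, overlapped (0.40 ± 0.23, adjusted p = 0.243).

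Other metabolic receptors did not follow this course. *nhr-68*, which with *nhr-10* detects lasting propionate, rose in mutants from 54.04, 59.1, 93.4 and 68.2 to 119, 113, 118 and 102 CPM (0.71 ± 0.16, adjusted p = 0.00412), and its values were 0.34 ± 0.22 in wildtype (0.276) and 0.37 ± 0.18 in rescued animals (0.164). *nhr-76*, which carries a neuronal serotonin signal to fat in the intestine, rose in mutants from 11.1, 12.6, 16.2 and 15.01 to 24.1, 17.2, 21.6 and 21.2 CPM (0.61 ± 0.17, adjusted p = 0.0125, lost without replicate 1 or 4). The difference between the genotypes' responses was not past the threshold for either gene. *nhr-10* (-0.08, 0.16 and -0.21), *nhr-13* (0.12, 0.25 and 0.19) and *nhr-66* (-0.05, -0.11 and -0.12), the last 2 of which are partners of NHR-49, and *nhr-62* (0.31, 0.55 and 0.35), needed for the long life of diet-restricted worms, were not called in wildtype, mutants or rescued animals.

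**Figure D4:**
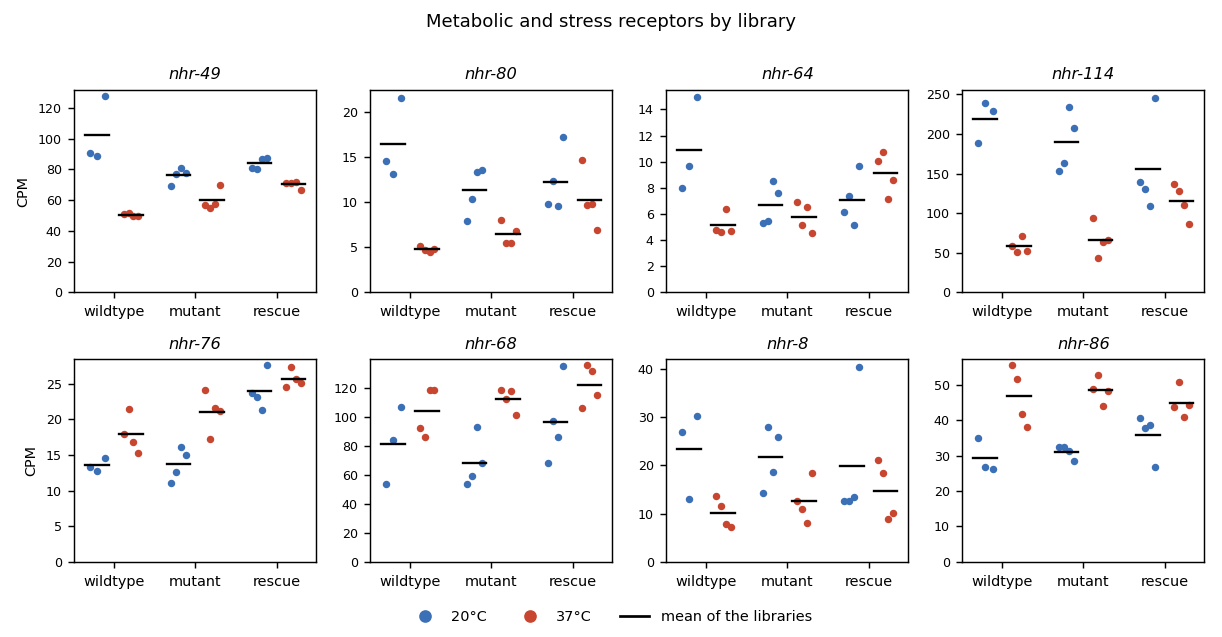
CPM (y axis, from 0) of 6 metabolic receptors and the stress receptors *nhr-8* and *nhr-86* by genotype (x axis), with 1 point per library, blue for 20°C and red for 37°C, and a black line at the mean of each group. For *nhr-49*, *nhr-80* and *nhr-114* the red wildtype points lie well under the blue ones, and in rescued animals the means are closer.

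Among 6 measured receptors of stress, toxins, pathogens and metals, 4 fell and 1 rose with heat in wildtype (17.1% and 15% of all genes), 2 fell and 1 rose in mutants (16.8% and 21.3%), and 1 fell in rescued animals (8.72%). The list's median was -1.10, -0.29 and -0.27. Of the 5 calls in wildtype, *nhr-14* alone was past the threshold with the depth term. *nhr-8*, a receptor of drug resistance and cholesterol balance, was at 26.9, 12.97 and 30.1 CPM in wildtype at 20°C and 13.7, 11.6, 7.81 and 7.297 CPM at 37°C, and at 14.2, 27.9, 18.6 and 25.9 and 12.6, 11, 7.97 and 18.4 CPM in mutants. The temperatures overlapped in both genotypes. The changes were -1.21 ± 0.34 (adjusted p = 0.0253) and -0.79 ± 0.27 (0.03400), lost without replicate 2 or 4 and with the depth term in wildtype (up to 0.387, with that term) and without replicate 2 or 3 in mutants (up to 0.202). In rescued animals the 20°C libraries were at 12.6, 12.7, 13.5 and 40.3 CPM and the heated ones at 21.1, 18.4, 8.84 and 10.2 CPM, with replicate 4 at 20°C far above its group.

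*nhr-86*, which detects a metabolite of *Pseudomonas aeruginosa* and starts an intestinal immune response, rose from 35, 26.7 and 26.2 to 55.6, 51.5, 41.7 and 38.02 CPM in wildtype and from 32.3, 32.3, 31.2 and 28.6 to 48.6, 52.6, 44.1 and 48.3 CPM in mutants. Neither genotype's temperatures overlapped. The changes were 0.67 ± 0.21 (adjusted p = 0.0371) and 0.64 ± 0.12 (0.00114), and that in rescued animals was 0.35 ± 0.16 (0.135). The call in wildtype was lost without any 1 replicate and with the depth term (up to 0.105). *nhr-45*, which acts on detoxification genes when mitochondria fail, fell in wildtype from 8.17, 15.2 and 20.8 to 7.02, 7.69, 7.59 and 7.42 CPM (-0.99 ± 0.29, adjusted p = 0.0303, lost without replicate 1, 3 or 4, with the replicate block and with the depth term, which gave the highest adjusted p, 0.214). *nhr-57*, a target of the hypoxia factor HIF-1, fell in wildtype from 7.96, 6.77 and 15.3 to 2.75, 3.52, 3.64 and 3.35 CPM (-1.59 ± 0.31, adjusted p = 0.00571, and 0.0767 with the depth term). Both were apart between the temperatures in wildtype, and in mutants the values were -0.19 and -0.39 without a call. *nhr-176*, which induces the cytochrome P450 gene *cyp-35D1* on thiabendazole, was not called (-0.47, -0.12 and -0.09).

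Heat was also followed in 9 listed receptors with counterparts in insects and vertebrates. Called among them were a fall of *nhr-8* in wildtype (17.1% of all genes fell), falls of *nhr-8* and *nhr-6* in mutants (16.8%), and a rise of *nhr-85* in rescued animals (11.7% rose). *nhr-6*, of the NR4A type and needed for the spermatheca, changed by -1.300 ± 0.42 in mutants (adjusted p = 0.0277), at levels of 1.42 ± 0.6405 CPM at 20°C and 0.572 ± 0.174 CPM at 37°C (SD, n = 4), and the call was lost without replicate 2, 3 or 4. *nhr-85*, the counterpart of E75 and Rev-erb with a part in developmental timing, was at 0.209, 0.832, 0.867 and 0.754 CPM in rescued animals at 20°C and 1.88, 1.75, 2.02 and 1.68 CPM at 37°C. Each heated rescued library was also above every library of the other genotypes. The change was 1.48 ± 0.38 (adjusted p = 0.0154), lost without replicate 2 or 3, and the gene shares exon sequence with *npr-14*. *nhr-23*, of the ROR type and a driver of the moult, was flat across the groups, with changes of -0.08, -0.13 and -0.35 and no call.

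*nhr-25* (chromosome X, 13008493 to 13013962, plus strand), the counterpart of Ftz-F1 and a receptor of the moult, the epidermis and the gonad, varied widely between replicates. It was at 1.27, 2.04 and 21.04 CPM in wildtype at 20°C and 1.12, 2.05, 2.44 and 1.94 CPM at 37°C, at 1.07, 0.952, 5.66 and 4.07 and 1.59, 0.8704, 7.55 and 1.75 CPM in mutants and at 1.54, 4.22, 2.87 and 8.98 and 4.61, 6.98, 16.4 and 8.17 CPM in rescued animals. Replicate 4 of wildtype at 20°C and replicate 3 of mutants at 37°C were far above their groups. Heat gave no call (-2.08 ± 0.84, -0.06 ± 0.67 and 1.104 ± 0.48, adjusted p = 0.0892, 0.956 and 0.123). Of the 8 measured receptors of development, none was called with heat in wildtype (32.1% of all genes). Only *nhr-6* was called in mutants (38.1%) and only *nhr-85* in rescued animals (20.4%), and the list's median was -0.41, -0.05 and 0.41.

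Among the members with a mean count of at least 50 and libraries that did not overlap, further falls in wildtype came from *nhr-121* (-2.02 ± 0.25, adjusted p = 7.64e-04) and *nhr-131* (-1.88 ± 0.26, 0.001200, and 0.0555 with the depth term). *nhr-131*, with *nhr-55* (-1.103 ± 0.32, 0.0166), also fell in mutants (-1.66 ± 0.29, 7.66e-04). Rises in wildtype came from *nhr-105* (0.89 ± 0.24, 0.0224) and *nhr-107* (0.78 ± 0.19, 0.0141), each lost without replicate 2 or 3 and with the depth term. In mutants *nhr-53* (1.66), *nhr-201* (1.44) and *nhr-143* (1.19) rose. In rescued animals *nhr-102* (0.97) and *nhr-136* (0.90) rose, each lost without replicate 2 or 3.

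The difference between genotypes' heat responses was tested directly as an interaction. No member was called between mutants and wildtype (0% of all genes, with 14 members at an unadjusted p under 0.05) or between rescued animals and mutants (0.0445% of all genes, 0.00742% higher and 0.0371% lower, with 17 members unadjusted), and DESeq2 called none in either. Between rescued animals and wildtype 10 members were called, or 5.75% against 3.07% of all genes, and in all 10 the response of rescued animals was the more positive (2.44% of all genes, against 0.63% with the less positive response). The members were *nhr-168* (2.80 ± 0.52, adjusted p = 0.00737), *nhr-79* (1.75 ± 0.37, 0.0151), *nhr-32* (1.70 ± 0.38, 0.0182), *nhr-121* (1.63 ± 0.38, 0.0216), *nhr-125* (1.59 ± 0.42, 0.0391), *nhr-80* (1.53 ± 0.35, 0.0216), *nhr-114* (1.47 ± 0.34, 0.0218), *nhr-64* (1.44 ± 0.35, 0.0259), *nhr-131* (1.26 ± 0.32, 0.0345) and *nhr-49* (0.76 ± 0.16, 0.0138). 4 of them, *nhr-49*, *nhr-80*, *nhr-64* and *nhr-114*, are the metabolic receptors that fell in wildtype.

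*nhr-168* turned direction between the genotypes. It was at 2.89, 2.62 and 7.42 CPM in wildtype at 20°C and 0.712, 1.47, 1.15 and 1.29 CPM at 37°C, at 1.38, 1.21, 1.97 and 1.65 and 1.59, 0.712, 0.923 and 0.914 CPM in mutants, and at 1.26, 1.54, 1.33 and 2.51 and 2.39, 3.25, 4.54 and 2.52 CPM in rescued animals. Heated wildtype libraries were below all unheated ones, and in rescued animals the temperatures overlapped. The heat changes were -1.87 ± 0.44 in wildtype (adjusted p = 0.0131, lost without replicate 4 and with the depth term), -0.55 ± 0.34 in mutants (0.225) and 0.99 ± 0.32 in rescued animals (0.0468). The call in rescued animals was past the threshold in 6 of 12 alternatives. It was lost without replicate 1, 2 or 3 and with the depth term (0.145).

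These interaction calls rest on few libraries. Without replicate 1, 2, 3 or 4 of every group the count was 0, 0, 1 and 9, and without only replicate 4 of wildtype at 20°C it was 2, with 1 in each direction. Over all alternatives the difference kept its sign in each of the 10, with *nhr-168* between 2.15 and 3.18 and *nhr-49* between 0.57 and 0.85. The same difference for *elt-2* was 2.03 and for the intestinal esterase gene *ges-1* 2.07, and the part of such a shift in the receptors' values was not tested.

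The next question was how the genotypes differed without heat. Between *hlh-30(tm1978)* mutants and wildtype at 20°C no member was past the threshold in edgeR's test (0.734% of all genes, 0.134% higher and 0.601% lower), 21 were at an unadjusted p under 0.05, and DESeq2's Wald test called 2. The median of the members was -0.26 against -0.07 for all genes, and without replicate 4 of wildtype it was -0.07. At 37°C *nhr-19* alone was called (0.764% of all genes, 0.134% higher and 0.63% lower). Rescued animals differed from mutants at 20°C in 8 members, 2 higher and 6 lower, or 4.6% against 23.1% of all genes (10.1% higher and 13.1% lower), and from wildtype in 9, 3 higher and 6 lower, or 5.17% against 12.9% (5% higher and 7.92% lower). With library size alone as the scaling the splits were 4 and 6, and 4 and 5. Without replicate 4 the counts were 14 and 22, and without replicate 2 they were 3 and 0. Without replicate 3 the count against wildtype was also 0. The 2 comparisons share the rescue libraries and are given side by side. Tissue markers differed between the genotypes at 20°C as well. Against mutants 4 of 5 sperm markers were higher in rescued animals, with a median of 3.28 and summed levels of 9.01 to 16.94 against 1.23 to 2.09 CPM, 3 of 5 neuronal markers were higher (0.52), and 1 of 4 embryo markers was lower (-1.71). Against wildtype 2 of 4 embryo markers were lower (-2.55, at 2.16 to 10.05 against 11.55 to 43.08 CPM), and 3 of 5 neuronal markers were higher and 1 lower (0.64). Of the neuronal markers, *rab-3* stood 3.4 above mutants and 3.2 above wildtype. The transgene holds the *rab-3* promoter and 3′UTR, so reads from it may be counted as *rab-3*. No intestinal marker was called in either comparison, and the part of these shifts in the members' values was not tested.

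*nhr-12* (chromosome V, 10082141 to 10084043, minus strand) was lower in rescued animals than in both other genotypes at both temperatures. It was at 36.3, 44.9 and 36.9 CPM in wildtype and 44.7, 44.9, 44.04 and 44.1 CPM in mutants at 20°C, and at 20.6, 17, 16.5 and 21.9 CPM in rescued animals. At 37°C the levels were 43.3, 43.4, 41.6 and 51.3, 44.3, 56.4, 47.4 and 56.5 and 21.01, 23.8, 18.6 and 23.2 CPM. No rescued library reached any library of the other genotypes. The difference at 20°C was -1.304 ± 0.14 from mutants (adjusted p = 1.41e-04) and -1.08 ± 0.17 from wildtype (0.00614), and at 37°C -1.31 ± 0.14 (1.09e-04) and -1.11 ± 0.14 (1.70e-04).

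*nhr-115* behaved alike, at 11.4, 11.7 and 15.2 CPM in wildtype, 11.3, 12.3, 9.78 and 9.41 CPM in mutants and 3.28, 6.598, 4.47 and 4.96 CPM in rescued animals at 20°C, and at 11.8, 8.23, 7.19 and 11.7, 10.6, 14.4, 7.72 and 8.39 and 3.59, 2.22, 3.88 and 4.96 CPM at 37°C. Rescued libraries were again the lowest at each temperature. The differences were -1.22 ± 0.22 and -1.43 ± 0.27 at 20°C (adjusted p = 0.00298 and 0.01198) and -1.55 ± 0.27 and -1.46 ± 0.27 at 37°C (6.75e-04 and 0.00173). For both genes the call against wildtype at 20°C was lost without replicate 2 or 3. *nhr-161* was at 8.66, 9.200, 8.29 and 7.76 CPM in mutants and 2.86, 3.03, 3.33 and 6.09 CPM in rescued animals at 20°C, and at 5.68, 7.04, 7.72 and 7.31 and 2.73, 3.65, 2.17 and 3.13 CPM at 37°C. It differed from mutants by -1.22 ± 0.26 at 20°C (adjusted p = 0.007402, lost without replicate 2) and -1.33 ± 0.23 at 37°C (7.51e-04). Against wildtype it was past the threshold at 37°C (-1.11 ± 0.22, 0.00272) and not at 20°C (-0.82 ± 0.32, 0.1303).

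Other receptors were higher in rescued animals at 20°C. *nhr-76* was at 23.7, 23.1, 21.3 and 27.6 CPM in rescued animals, 11.1, 12.6, 16.2 and 15.01 CPM in mutants and 13.3, 12.8 and 14.6 CPM in wildtype, and every rescued library was the higher. The differences were 0.72 ± 0.16 from mutants (adjusted p = 0.0101, lost without replicate 1 or 2) and 0.78 ± 0.17 from wildtype (0.02097, lost without replicate 2 or 3). *nhr-97*, the fourth highest in wildtype per kilobase, was at 77.8, 92.5, 94.7 and 114.8 CPM in rescued animals and 60.3, 55.3, 73.2 and 59.7 CPM in mutants (0.53 ± 0.14, adjusted p = 0.0209, lost without replicate 2 or 4). *nhr-74* was 1.65 ± 0.36 above wildtype (0.0212, lost without replicate 2 or 3). Lower than in wildtype were *nhr-228* (-0.94) and *nhr-90* (-1.16), and lower than in mutants was *nhr-100* (-0.54), with each of these calls lost without replicate 1, 2 or 3.

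*nhr-19* separated wildtype from both strains that carry the *hlh-30* allele. It was at 4.58, 7.28 and 8.99 CPM in wildtype, 2.22, 2.98, 2.63 and 1.84 CPM in mutants and 2.095, 2.32, 3.27 and 2.198 CPM in rescued animals at 20°C, and at 3.96, 4.41, 5.24 and 5.89, 1.88, 1.27, 2.098 and 1.16 and 2.904, 2.46, 2.79 and 2.06 CPM at 37°C. At both temperatures every wildtype library was above every other library. Mutants differed from wildtype by -1.597 ± 0.26 at 37°C (adjusted p = 0.01802, lost without replicate 1, 2 or 4) and by -1.50 ± 0.30 at 20°C (0.0603). Rescued animals differed from wildtype by -1.52 ± 0.31 at 20°C (0.0152, lost without replicate 2 or 3) and -0.99 ± 0.23 at 37°C (0.00626, lost without replicate 4), and against mutants they were not called at either temperature (-0.05 ± 0.25 and 0.59 ± 0.29). Exons of *nhr-19* overlap *mrpl-53*, so its counts may include reads of that gene.

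After heat more members were called between rescued animals and the other genotypes. The members' median absolute difference was 0.26 at 20°C and 0.40 at 37°C against mutants, and 0.41 and 0.46 against wildtype. Their median standard error was 0.28 and 0.24 against mutants and 0.32 and 0.24 against wildtype, which had 3 libraries at 20°C and 4 at 37°C. Against mutants at 37°C 21 members were higher and 24 lower, or 25.9% against 36.8% of all genes (16.5% higher and 20.3% lower), and against wildtype 31 were higher and 27 lower, or 33.3% against 40.1% (18.2% higher and 21.9% lower). With library size alone as the scaling the splits were 35 and 15, and 47 and 18, and the median of all genes shifted by 0.18 and 0.23. In 1 fit of all libraries the split against mutants was 23 and 14. Of the 10 metabolic receptors, 5 were higher and 2 lower than in wildtype. Those higher were *nhr-49* (0.42), *nhr-80* (1.05), *nhr-64* (0.77), *nhr-76* (0.46) and *nhr-114* (0.93), and those lower were *nhr-10* (-0.64) and *nhr-13* (-0.55). Of these 7 calls, those of *nhr-80* and *nhr-114* held without any 1 replicate. Tissue markers differed here as well. All 5 intestinal markers were higher in heated rescued animals than in heated wildtype (median 1.59) and than in heated mutants (1.20). Against mutants 4 of 5 sperm markers were also higher (2.38, at 14.3 to 24.4 against 3.82 to 9.903 CPM), 3 of 5 neuronal markers were higher and 1 lower (0.77), and 2 of 4 embryo markers were lower (-0.87). Against wildtype 3 of 5 neuronal markers were higher and 2 lower (0.89). Of these markers *rab-3*, whose promoter and 3′UTR are in the transgene, stood 3.41 above mutants and 3.03 above wildtype. The part of these shifts in the members' values was not tested.

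Of the 9 receptors with insect and vertebrate counterparts, 5 were higher in heated rescued animals than in heated mutants and none lower. Of all genes 16.5% were higher and 20.3% lower. The 5 were *nhr-25*, *nhr-41*, *nhr-48*, *nhr-85* and *nhr-91*. *nhr-25* was 1.59 ± 0.55 above mutants (adjusted p = 0.03701, lost without replicate 2 or 4) and 2.18 ± 0.38 above wildtype (0.00126), at the levels given before. The cuticle gene *dpy-7* was likewise 3.87 above mutants and 2.67 above wildtype. It differed the most of 3 measured hypodermal markers, with *col-140* at 0.58 and 0.73 and *col-19* at 0.51 and 0.94. Of the 3 markers, 1 was called higher than in mutants and 2 higher than in wildtype. The part of such a shift in the value of *nhr-25* was not tested. *nhr-85* was 1.42 ± 0.44 above mutants (0.0208, lost without replicate 2 or 4) and 1.41 ± 0.29 above wildtype (0.00317). *nhr-41*, related to the vertebrate testicular receptors, and *nhr-91*, related to the germ cell nuclear factor, were 1.00 and 1.76 above mutants at means of 3.84 ± 1.78 and 2.25 ± 0.894 CPM (SD, n = 4), and the call of *nhr-41* was lost without replicate 2 or 3 and that of *nhr-48* (0.65) without replicate 2, 3 or 4. *nhr-67*, a counterpart of tailless that acts in the anchor cell, was not called (1.13 and 0.60).

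*nhr-31*, which shapes the excretory cell, was at 67.4, 71.97, 71.7 and 60.5 CPM in heated rescued animals, 50.03, 33.5, 39.7 and 32 CPM in heated mutants and 19.8, 14.5, 36.3 and 27.98 CPM in heated wildtype. The rescued libraries were above all others. It was 0.73 ± 0.15 above mutants (adjusted p = 0.00186) and 1.41 ± 0.23 above wildtype (8.67e-04). *nhr-179* was 1.15 ± 0.29 and 1.47 ± 0.33 above them (0.00692 and 0.004900), and *nhr-35* 0.94 ± 0.19 and 0.96 ± 0.19 (0.00177 and 0.00233).

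Lower in rescued animals after heat was *nhr-17*, at 13.6, 13.1, 11.5 and 11.2 CPM in heated rescued animals, 17.4, 20.4, 19.6 and 27.1 CPM in heated mutants and 52.1, 64.02, 22.5 and 28.9 CPM in heated wildtype. The rescued libraries lay close together and the wildtype libraries were widely spread, without overlap. The differences were -0.84 ± 0.17 from mutants (adjusted p = 0.00195, lost in 1 fit of all libraries) and -1.83 ± 0.31 from wildtype (9.74e-04). *nhr-105* was lower than in wildtype (-1.20 ± 0.14, 1.48e-04). *nhr-2*, which is made in the early embryo, was at 10.7, 16.5, 15.6 and 14.2 CPM in heated rescued animals, 17.2, 22.7, 31.1 and 29.9 CPM in mutants and 21.6, 30.5, 22.9 and 31.4 CPM in wildtype, without overlap. The differences were -0.89 ± 0.21 from mutants and -0.96 ± 0.19 from wildtype (0.00468 and 0.00219), and both calls were lost in 1 fit of all libraries. Of 4 measured embryo markers 2 were lower and 1 higher in heated rescued animals than in heated wildtype. Their summed level was 8.54 to 13.96 CPM against 10.7 to 28.7 CPM, and its part in the value of *nhr-2* was not tested.

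**Figure D5:**
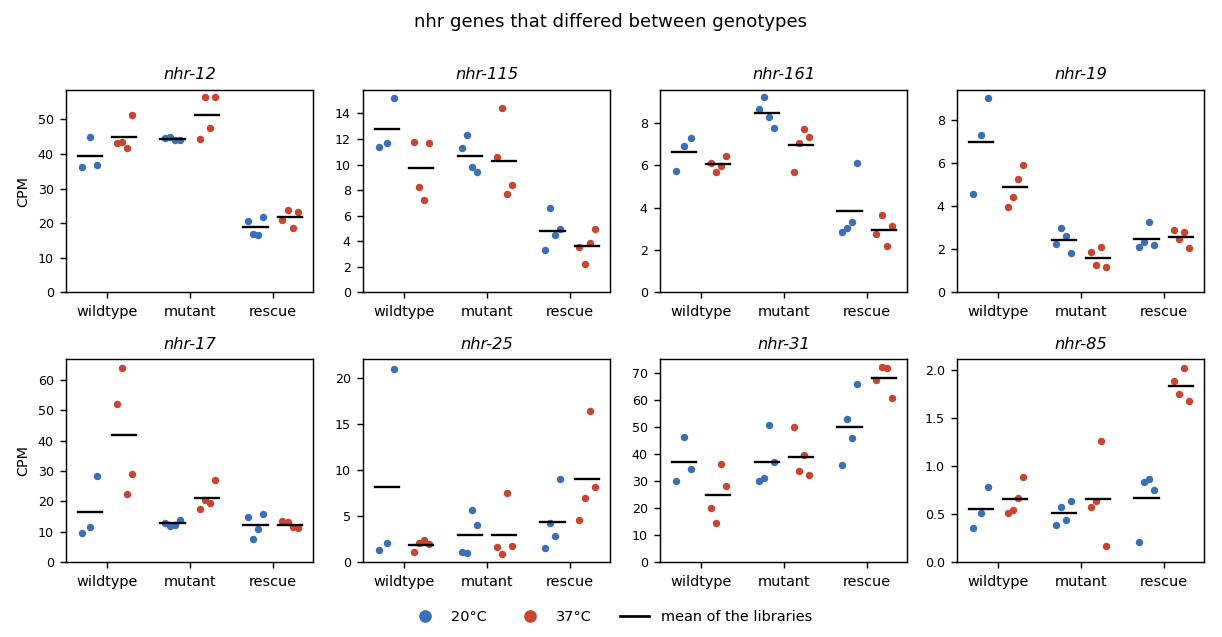
CPM (y axis, from 0) of 8 members that differed between genotypes (x axis), with 1 point per library, blue for 20°C and red for 37°C, and a black line at the mean of each group. *nhr-12*, *nhr-115* and *nhr-161* are low in rescued animals at both temperatures, *nhr-19* is high in wildtype, and *nhr-25* has single libraries far above their groups.

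Many members lie side by side. The largest run lies on chromosome V from 451451 to 497287 and holds 12 members from *nhr-123* to *nhr-131*. 6 of its members fell with heat in wildtype (17.1% of all genes) and none rose (15%). In mutants 4 fell and 1 rose (16.8% and 21.3%), and none was called in rescued animals (20.4% either way). A run of 7 on chromosome V from 6980595 to 7000651 holds *nhr-161*, *nhr-107* and *nhr-42*. It had 2 rises in wildtype (15% of all genes), 3 in mutants (21.3%) and 1 in rescued animals (11.7%), and no fall. Reads that fit more than 1 of such close copies may be shared or lost in counting. By chromosome, 28 of the 110 members on V and 7 of the 16 on X fell in wildtype, against 17% and 26.4% of the other genes tested there.

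Genes known to act with these receptors were listed by role, and 18 of 22 were measured. With heat 1 rose and 6 fell in wildtype, against 15% and 17.1% of all genes. In mutants 2 rose and 5 fell (21.3% and 16.8%), and in rescued animals 2 rose and 1 fell (11.7% and 8.72%). The list's medians were -0.56, -0.42 and -0.05. *mdt-15*, the Mediator subunit through which NHR-49 works, fell in wildtype (-1.01 ± 0.24, adjusted p = 0.0124), and its changes were -0.44 ± 0.17 in mutants (0.0613) and -0.18 ± 0.17 in rescued animals (0.494). *daf-12*, the steroid receptor, fell in wildtype (-0.64 ± 0.18), and *daf-9*, which makes its ligand, rose there (1.41 ± 0.36).

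The targets did not move as 1 group. The Δ9 desaturase genes *fat-5* and *fat-7*, targets of NHR-49 and NHR-80, fell in wildtype (-2.25 and -1.35) and in mutants (-1.47 and -0.70), while *fat-6* rose in mutants (0.91) and rescued animals (0.83). *fat-5* was the 1 gene of the list whose response differed between rescued animals and wildtype (1.80 ± 0.48, adjusted p = 0.0404). Before heat rescued animals already had less *fat-5* than wildtype (-2.99 ± 0.25, 7.93e-04), as they did of *fat-7* (-1.76), *fat-6* (-1.09) and *acs-2* (-0.96). Unheated mutants were below wildtype too, with a call for *fat-5* (-1.35, adjusted p = 0.0422) and none for *acs-2* (-1.02), *fat-7* (-0.88) and *fat-6* (-0.74). Against unheated mutants rescued animals had less *fat-5* (-1.67) and *fat-7* (-0.92), while *fat-6* (-0.40) and *acs-2* (0.02) were not called. *ftn-1*, a target of NHR-14, was below wildtype in unheated mutants (-2.79, 0.00583) and rescued animals (-1.94, 0.0302). *smf-3*, the iron importer that NHR-14 holds back, fell in wildtype (-2.10 ± 0.58) and mutants (-1.86 ± 0.63), as *nhr-14* itself did. *hphd-1*, a gene of the propionate pathway under NHR-10 and NHR-68, fell in both as well (-0.81 and -0.89), and *irg-5*, an immune gene, fell in mutants (-0.91) and rescued animals (-1.32). Before heat *irg-5* was above wildtype in rescued animals (1.96, adjusted p = 0.0201), with no call in mutants (2.21, 0.0722). Its means after heat were 20.4 CPM in mutants, 12.9 CPM in rescued animals and 9.34 CPM in wildtype. Against heated wildtype, rescued animals had more *mdt-15* (0.47), *acdh-1* (0.90), *hphd-1* (0.85), *smf-3* (2.09) and *cyp-35D1* (1.67) and less *fat-5* (-1.21), *fat-6* (-0.73), *fat-7* (-0.93) and *acs-2* (-2.13). For *acs-2* heated mutants differed from wildtype by -2.17 (adjusted p = 0.0503), and rescued animals from mutants by 0.02.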

How the data were processed

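The authors trimmed the read pairs with Trimmomatic, mapped them to WBcel235 with STAR and assigned them to genes with Subread, and they deposited raw counts without normalization. Groups follow the labels of the samples. From the counts of 23 libraries, genes with a mean of at least 10 were kept (13482), scaled with TMM and tested by quasi-likelihood in edgeR 4.0.16 (R 4.3.3), adjusting over all genes after Benjamini and Hochberg, at a threshold of 0.05. Heat and genotype comparisons used the libraries of the 2 groups compared, and interactions a model of all 6 groups. CPM are given without a prior count. Genes were matched to Ensembl release 115, and coordinates are those of the files.

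The members and gene lists were chosen with earlier results of these data known. Named members are the 10 highest per kilobase, all members of 4 role lists, up to 5 (at 37°C 3) each way per comparison among those past the threshold with a mean of at least 50 counts and no overlap between groups, up to 5 each way per interaction, and those called alike in all 3 genotypes. *nhr-7*, *nhr-60*, *nhr-123*, *nhr-178*, *nhr-207*, *nhr-236* and *nhr-263* are named for their place at the threshold or in a run. Alternatives were DESeq2 1.42.0, other scalings, no filter, a replicate block, all libraries in 1 fit, depth class as a covariate and leaving out each replicate. Leaving out single libraries was chosen after seeing the data. The methods were tested on simulated data.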

Additional observations from a re-analysis of the deposited data

Results flagged for a closer look

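In 145 groups of 4 libraries, over the 29 members whose library values were printed or plotted, 11 held a library far from the other 3, and chance gives about 1 in 20. Rescue replicate 4 at 20°C was high for *nhr-8* (40.3 CPM against 12.6 to 13.5), *nhr-57* (7.22 against 3.07 to 3.77) and *nhr-161* (6.09 against 2.86 to 3.34), and it was also the rescue library with the highest summed receptor level and the most *elt-2*. Among heated rescued animals replicate 1 was low for *nhr-14* (1.79 CPM against 2.901 to 2.99) and replicate 2 high for *nhr-42* (20.8 against 13.2 to 14.5). Heated mutant replicate 4 was high for *nhr-241* (5.40 CPM against 2.85 to 3.02) and *nhr-49* (70.0 against 54.8 to 57.3), replicate 2 for *nhr-222* (2.77 against 1.43 to 1.58) and replicate 3 for *nhr-25* (7.55 against 0.87 to 1.75). Heated wildtype replicate 3 was high for *nhr-64* (6.39 CPM against 4.64 to 4.78). The single count of *nhr-222* in rescued animals at 20°C, 0.0667 CPM in replicate 3 against 0, is no departure beyond counting error.

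The heat responses of rescued animals and wildtype differed by the interaction test in 10 members, with log2 differences of 2.80 for *nhr-168*, 1.75 for *nhr-79*, 1.70 for *nhr-32*, 1.63 for *nhr-121*, 1.59 for *nhr-125*, 1.53 for *nhr-80*, 1.47 for *nhr-114*, 1.44 for *nhr-64*, 1.26 for *nhr-131* and 0.76 for *nhr-49*. Without wildtype replicate 4 at 20°C 2 members were called.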

How the results depend on the processing

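Of 129 counts of members under the alternatives, 91 were within 1.5 times the value given, and of 1801 values of the 164 named calls, 1495 stayed past the threshold, 306 kept their direction without passing and 0 reversed. With depth class as a covariate 11 members were called with heat in wildtype, and 21 in the interaction of rescued animals with wildtype, which had 18 with library size alone and 20 with DESeq2. DESeq2 called 2 members between mutants and wildtype at 20°C and 7 at 37°C, and 14 and 20 between rescued animals and mutants or wildtype at 20°C. Without a filter the counts were 1 (mutants against wildtype at 20°C), 3 (at 37°C), 14 (rescued animals against wildtype at 20°C) and 1 (interaction of rescued animals with mutants). In 1 fit of all libraries they were 7 (mutants against wildtype at 20°C), 2 (at 37°C), 14 (rescued animals against mutants at 20°C) and 29 (against wildtype). Without only rescue replicate 4 at 20°C 24 members were called with heat in rescued animals, without only wildtype replicate 4 at 20°C 46 were called with heat in wildtype and 2 in the interaction, and without only mutant replicate 3 at 20°C 50 were called with heat in mutants. The cause was not tested.

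Leaving out 1 replicate number at a time gave 30 to 39 heat calls in wildtype, 34 to 45 in mutants and 5 to 21 in rescued animals. At 20°C it gave 0 between mutants and wildtype, 3 to 14 between rescued animals and mutants and 0 to 22 between rescued animals and wildtype, and at 37°C 0 to 1, 24 to 44 and 33 to 48. The interaction of rescued animals with wildtype gave 0 to 9, and the other interactions 0. Fewer libraries are tested in each of these fits.

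Same-numbered libraries did not deviate together in every pair (correlations of -0.202 to 0.58), so the replicate numbers were not taken as pairs. With the replicate block 44, 59 and 18 members were called with heat in wildtype, mutants and rescued animals, 19 between rescued animals and wildtype at 20°C, and 13 in the interaction of rescued animals with wildtype.

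Members below 1 CPM per kilobase had few counts, and a difference not called there was not detectable at this depth. The 3 unheated wildtype libraries limit every comparison with that group, and overlapping genes and close copies limit the members that share sequence.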
